A study of Mus musculus with 6 samples.

Results

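A group of 10 keratin genes of the ocular surface was followed in whole corneas of mice that had an open-field blast injury, the OFBI group, and of Naive mice. They were taken by name, by the cells in which they are usually found, under a rule that uses no measured value but was set with earlier results of these data known: Krt12 and Krt5 for the corneal epithelium, Krt14 and Krt15 for basal and limbal cells, Krt4, Krt13 and Krt19 for the conjunctiva, Krt8 and Krt18 for simple epithelia, and Krt6a for stressed epithelium. The 10 genes stood among 22007 gene symbols, of which 13941 passed the filter on low counts, and all 10 passed it. The OFBI group was male C57BL/6J mice, awake when a single charge of 350 g of the explosive C-4 was set off at a distance of 3 m, with corneas taken 12 months later. The Naive group was male C57BL/6J mice with the same 12-month label. Each group had 3 libraries, each from a pool of corneas, so the spread between libraries is that between pools and not between animals.

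Keratins are the intermediate filament proteins of epithelial cells. A type I keratin pairs with a type II keratin to form a filament, and epithelia differ in the pairs they make. In the mouse corneal epithelium the type I keratin Krt12 is made with the type II keratin Krt5. Basal cells of stratified epithelia pair Krt5 with Krt14, the conjunctiva and other moist linings make Krt4 with Krt13, and simple epithelia make Krt8 with Krt18. The type II keratin Krt6a is known from skin and other stratified epithelia as one that is made after injury, with Krt16 and Krt17 as its type I partners. On GRCm38 (GENCODE release M21) the type I genes Krt12, Krt13, Krt15, Krt19 and Krt14 lie in this order on chromosome 11, from base 99415666 at the end of Krt12 to base 100207548 at the start of Krt14, all on the minus strand. The type II genes Krt6a, Krt5, Krt4 and Krt8 lie on the minus strand of chromosome 15, from base 101689910, and the type I gene Krt18 follows Krt8 on the plus strand, up to base 102032027.

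Depth followed the groups, and this touches every value below. The OFBI libraries held 3410476, 3355422 and 1173472 estimated counts, against 47809779, 43053764 and 41971752 in the Naive libraries, a mean ratio of Naive over OFBI of 16.7. Group and depth thus cannot be told apart in any comparison. All libraries carry the same batch number in the labels, so every comparison lies within 1 batch number. Markers of the corneal epithelium outside the keratins, Pax6, Aldh3a1, Tkt and Clu, were detected in all 6 libraries. None of these 4 was called changed by edgeR, and they went both ways. Pax6 and Aldh3a1 had log2 fold changes of 0.59 and 0.36, with unadjusted p-values of 0.0111 and 0.0271, and Tkt and Clu of -0.29 and -0.23, with unadjusted p-values of 0.0674 and 0.15. DESeq2 called 2 of the 4 higher and none lower. Values are CPM, counts per 1000000 counts of a library scaled by the TMM method, unless said otherwise.

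After OFBI, 7 of the 10 keratins were called higher, none was called lower, and Krt19, Krt8 and Krt18 were not called (quasi-likelihood test of edgeR, p adjusted by Benjamini-Hochberg over all genes tested and below 0.05). Among all genes tested, 8.41% were called higher and 10.4% lower, or 1173 and 1446 genes. With scaling by library size only these were 866 and 2038 genes. The called keratins had log2 fold changes of 0.60 to 1.81, OFBI over Naive. The median over all 10 was 1.25, beside -0.20 over all genes tested, or -0.11 with the 831 genes at 0 in all OFBI libraries set to their bound. No keratin of the 10 was lower with an unadjusted p below 0.05, where 8 were higher, beside 4589 of the 13941 genes tested that passed this in either direction. DESeq2, which called 13.3% of all genes higher, called 8 of the 10 higher and none lower. The 3 libraries of each group did not overlap for 8 of the 10, all with OFBI higher, where 16.4% of all genes tested had groups apart in that direction and 29.9% in the other.

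The share of called genes also depended on abundance. Genes averaging 100 CPM or more were called higher in 21.3% of 2309 cases, with a median log2 fold change of 0.06, and 7 of the 8 keratins at that level were called higher. At a mean of at least 1000 CPM, 47.1% of 85 genes were called higher, with a median of 0.48. The 6 keratins at that level, which are among those 85, were all called higher. These means run over all 6 libraries, so a gene high in OFBI can enter a class through that group alone. The shares called higher are thus partly set by the classes. Krt14 entered the upper class in this way, at 1909 CPM in OFBI and 546 CPM in Naive corneas. Krt8 and Krt18 lay far below both classes. In bulk corneas, more cells of a type and more RNA per cell cannot be told apart.

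**Figure D1:**
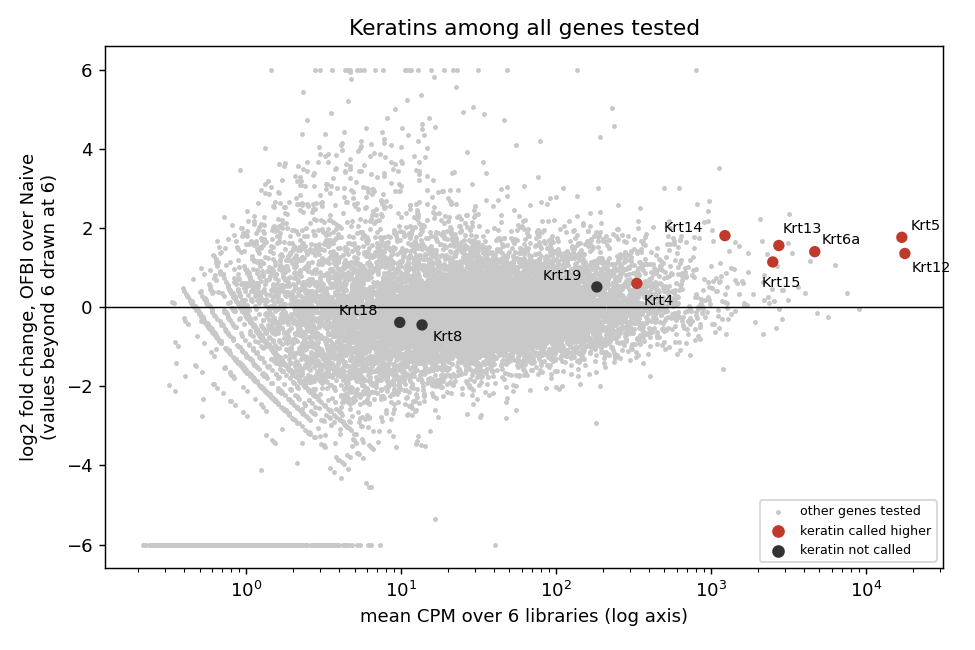
Log2 fold change, OFBI over Naive, of each gene tested (vertical axis, values beyond 6 drawn at 6) against its mean CPM over the 6 libraries (horizontal log axis). Grey points are the other genes tested, red points the keratins called higher and black points Krt19, Krt8 and Krt18, which were not called. The 6 keratins above 1000 CPM sit at log2 fold changes of 1.14 to 1.81.

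Of all counts in a library, the 10 keratins together took 5.25%, 6.37% and 7.49% in the OFBI libraries, against 2.60%, 2.59% and 2.61% in the Naive libraries. The share averaged 6.37% ± 1.12 in OFBI and 2.60% ± 0.0115 in Naive corneas (SD, n = 3 each), a fold of 2.45. Every OFBI library lay above every Naive one, and the exact permutation test gave p = 0.1, two-sided, the smallest p that 3 against 3 libraries can give. Krt12 and Krt5 made up most of it, with 4.81% ± 0.88 in OFBI and 1.90% ± 0.0308 in Naive corneas (SD, n = 3 each). The other 8 keratins together showed a like fold of 2.24, with 1.28%, 1.63% and 1.77% in OFBI and 0.718%, 0.698% and 0.673% in Naive libraries.

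**Figure D2:**
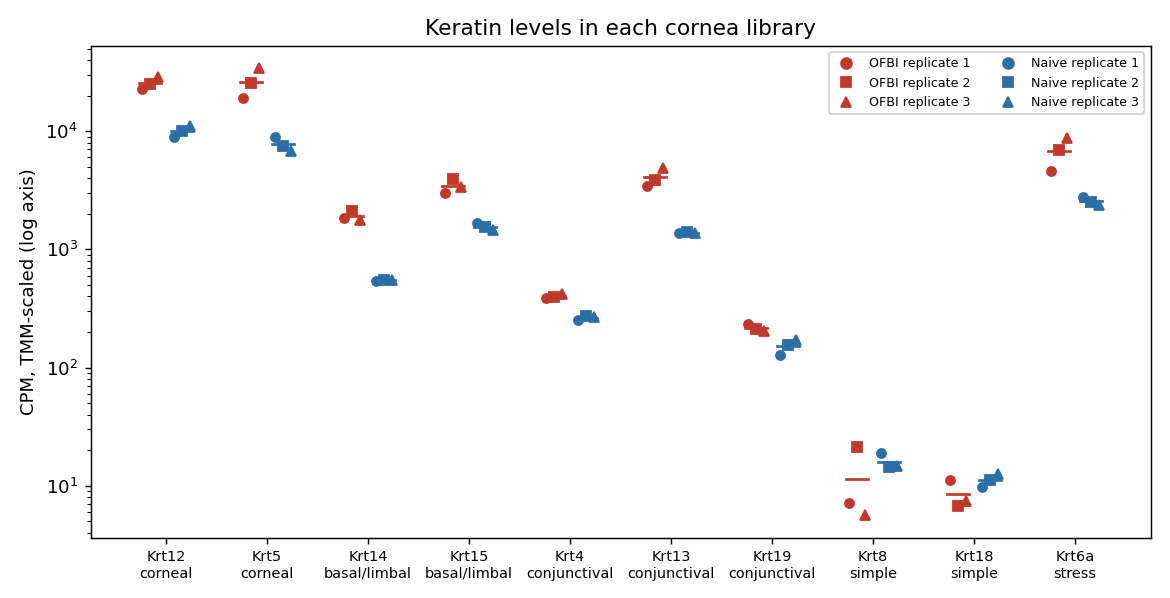
TMM-scaled CPM of each of the 10 keratins (log axis) in the 3 OFBI libraries (red) and the 3 Naive libraries (blue). Symbols mark the replicate number and bars the group means. Red symbols lie above all blue ones for 8 keratins and mix with them for Krt8 and Krt18.

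Krt12, the type I keratin that marks corneal epithelial cells, measured 22859.8, 25083 and 28769 CPM in the OFBI libraries, against 8869, 10025 and 11102 CPM in the Naive libraries. All 3 OFBI libraries lay well above the highest Naive library. Means were 25571 ± 2985 CPM in OFBI and 9999 ± 1117 CPM in Naive corneas (SD, n = 3 each). The log2 fold change was 1.35 (SE 0.15, 95% interval 1.01 to 1.70), or 2.56-fold (edgeR adjusted p = 0.00666). By CPM, Krt12 ranked second among all genes in the OFBI group and first in the Naive group.

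Krt5, the type II partner of Krt12 in the cornea and of Krt14 in basal cells, measured 18981, 25762 and 34042 CPM in the OFBI libraries, against 8883, 7509 and 6809 CPM in the Naive libraries. The groups were apart, while the OFBI libraries spread widely among themselves, with OFBI replicate 3 on top. Means were 26262 ± 7543 CPM in OFBI and 7734 ± 1055 CPM in Naive corneas (SD, n = 3 each). The log2 fold change was 1.76 (SE 0.23, 95% interval 1.22 to 2.31), or 3.40-fold (edgeR adjusted p = 0.00964). Without OFBI replicate 3, the shallowest library, it was 1.52, with an edgeR adjusted p of 0.00411, and that of Krt12 was 1.25.

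Both corneal calls were near the threshold once a Naive library was left out. Krt12 had edgeR adjusted p-values of 0.044, 0.0548 and 0.0461 without Naive replicate 1, 2 and 3 in turn, and Krt5 had 0.0524, 0.0604 and 0.0531. Without Naive replicate 2 edgeR called no gene of the whole table, although 2441 genes, 8 of the 10 keratins among them, had an unadjusted p below 0.05, and DESeq2 called 1010 genes (8.35%) higher, 7 keratins among them. Without Naive replicate 1 or 3, edgeR called 4 or 3 of the 10 keratins higher, where 0.802% or 0.793% of all genes were. With DESeq2 in place of edgeR, both keratins were called with each Naive library left out.

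The start regions of Krt12 and Krt5 are shown because these abundant partners lie on different chromosomes and were both higher in OFBI corneas. Each runs from 250 bases before the RefSeq start to 50 bases after it (GRCm38.p6), with Krt12 at chr11:99422210-99422509 and Krt5 at chr15:101712856-101713155, both on the minus strand. Capitals mark matches to any of 5 short motifs, on either strand.
Krt12: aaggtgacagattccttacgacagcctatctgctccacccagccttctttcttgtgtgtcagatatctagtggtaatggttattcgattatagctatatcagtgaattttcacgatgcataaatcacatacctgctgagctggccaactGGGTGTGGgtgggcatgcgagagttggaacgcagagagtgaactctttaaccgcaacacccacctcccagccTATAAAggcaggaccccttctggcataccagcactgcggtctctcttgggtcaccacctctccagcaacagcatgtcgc
Krt5: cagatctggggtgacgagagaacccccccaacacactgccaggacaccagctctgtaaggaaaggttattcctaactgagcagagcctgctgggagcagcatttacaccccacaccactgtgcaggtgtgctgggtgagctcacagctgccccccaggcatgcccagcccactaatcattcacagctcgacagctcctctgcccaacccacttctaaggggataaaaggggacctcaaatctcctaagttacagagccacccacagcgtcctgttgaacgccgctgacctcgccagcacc
The motifs were a TATA box (TATAAA, held by 13.6% of 32851 RefSeq promoter windows of this length), AP-1 (TGANTCA, 7.81%), KLF (CCNCNCCC, 49.5%), AP-2 (GCCNNNGGC, 16.6%) and a GC box (GGGCGG, 35.7%). KLF and GC box letters can overlap. The Krt12 window held 1 TATA box and 1 KLF match, and the Krt5 window held no match to any of the 5. A match is only a run of letters and says nothing of what binds there.

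Krt14, the type I partner of Krt5 in basal cells, measured 1842, 2117 and 1768 CPM in the OFBI libraries, against 537, 551 and 549 CPM in the Naive libraries. The libraries were close together within each group and far apart between groups. Means were 1909 ± 184 CPM in OFBI and 546 ± 7.82 CPM in Naive corneas (SD, n = 3 each). Its log2 fold change, 1.81 (SE 0.12, 95% interval 1.52 to 2.09) or 3.50-fold, was the highest of the 10 keratins (edgeR adjusted p = 0.0053). The call was lost without Naive replicate 2 (edgeR adjusted p = 0.0518).

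Krt15, a type I keratin of basal cells and of the limbus, where corneal epithelial stem cells reside, measured 2997, 3942 and 3371 CPM in the OFBI libraries. Its Naive libraries had 1687, 1539 and 1451 CPM. The groups were apart, and means were 3437 ± 476 CPM in OFBI and 1559 ± 119 CPM in Naive corneas (SD, n = 3 each). The log2 fold change was 1.14 (SE 0.14, 95% interval 0.80 to 1.48), or 2.20-fold (edgeR adjusted p = 0.00893). Leaving out Naive replicate 2 or 3 ended the call (edgeR adjusted p = 0.0604 and 0.0527).

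Trp63, the transcription factor of basal and limbal epithelial cells, went the other way. It measured 193, 142 and 179 CPM in the OFBI libraries, against 422, 346 and 316 CPM in the Naive libraries. Its log2 fold change was -1.08 (edgeR adjusted p = 0.0147, SE 0.18), and every OFBI library lay below every Naive one. Without Naive replicate 1, 2 and 3 in turn its edgeR adjusted p was 0.07, 0.0808 and 0.0624.

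Of the conjunctival keratins, Krt13 showed the clearest difference. This type I keratin of moist stratified linings measured 3452, 3865 and 4927 CPM in the OFBI libraries, against 1374, 1404 and 1383 CPM in the Naive libraries. The Naive libraries were almost level, and the lowest OFBI library lay far above them. Means were 4082 ± 761 CPM in OFBI and 1387 ± 15.4 CPM in Naive corneas (SD, n = 3 each), and the log2 fold change was 1.56 (SE 0.16, 95% interval 1.19 to 1.92), or 2.94-fold (edgeR adjusted p = 0.0064). The call was lost without Naive replicate 2 (edgeR adjusted p = 0.0548).

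Krt4, the type II partner of Krt13, measured 387, 396 and 416 CPM in the OFBI libraries, against 252, 271 and 269 CPM in the Naive libraries. The groups were narrow and apart. Means were 399.6 ± 15.1 CPM in OFBI and 264 ± 10.7 CPM in Naive corneas (SD, n = 3 each). The log2 fold change of 0.60 (SE 0.11, 95% interval 0.33 to 0.87), or 1.51-fold, was the smallest of the called keratins (edgeR adjusted p = 0.0201). Several settings ended the call, among them scaling by library size only, with which the median of all genes was -0.40 and Krt4 stood at 0.39 (edgeR adjusted p = 0.0513), removal of a trend with GC content and length (0.39, edgeR adjusted p = 0.069) and leaving out Naive replicate 1, 2 or 3 (edgeR adjusted p = 0.088, 0.109 and 0.0908).

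Krt19, a small type I keratin found in the conjunctiva and limbus, measured 232, 210.3 and 203 CPM in the OFBI libraries. In the Naive libraries it measured 128, 155 and 170.3 CPM. The groups did not overlap, yet the gap between them was narrow beside the spread of the Naive libraries. Its log2 fold change of 0.51 (SE 0.15, 95% interval 0.15 to 0.87) was not called (edgeR adjusted p = 0.0605). DESeq2 called it, at 0.52 (DESeq2 adjusted p = 0.00793), and edgeR called it without OFBI replicate 3 (0.54, adjusted p = 0.0481), with counts divided by 4 (0.54, adjusted p = 0.0448) and with all libraries thinned to the depth of the shallowest (0.69, adjusted p = 0.0315). Removal of a trend with GC content and length left 0.05 (edgeR adjusted p = 0.886).

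The Krt13 start region is shown beside those of Krt12 and Krt5 because Krt13 was the member whose pattern over the 6 libraries was nearest to both. It lies at chr11:100121517-100121816, minus strand, in the same RefSeq table, which lists a further start for this gene. Capitals again mark motif matches.
Krt13: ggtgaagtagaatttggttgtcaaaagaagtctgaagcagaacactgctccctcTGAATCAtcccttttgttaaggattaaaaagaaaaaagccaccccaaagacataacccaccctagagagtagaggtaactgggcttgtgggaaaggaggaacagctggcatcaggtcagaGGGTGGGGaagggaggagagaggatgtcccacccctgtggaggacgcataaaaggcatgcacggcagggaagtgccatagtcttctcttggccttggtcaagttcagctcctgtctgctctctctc
The window held 1 AP-1 match and 1 KLF match, while that of the further start held 2 AP-1 matches and no KLF match. As the Krt5 window held no match, no motif of the 5 could be found in all 3 windows shown.

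Goblet cells, the mucus cells of the conjunctiva, left little trace in either group. Of 10 goblet cell markers, 9 were at 0 in all OFBI libraries, the secreted mucin Muc5ac among them. The summed level of the list was at most 393 CPM in OFBI and at most 342 CPM in Naive libraries, and nearly all of it was Fcgbp, which measured 351 ± 47.1 CPM in OFBI and 321 ± 29.7 CPM in Naive corneas (SD, n = 3 each). Agr2 was called lower at 0 in all OFBI libraries, but its Naive mean of 1.34 CPM lay under the 1.62 CPM that 12 counts over the OFBI group would give, so a difference was not detectable at this depth.

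Krt8, the type II keratin of simple epithelia, had 23, 66 and 6 counts in the OFBI libraries, or 7.11, 21.1 and 5.61 CPM. In the Naive libraries it had 960, 661 and 669 counts, or 19.0, 14.3 and 14.7 CPM. The groups overlapped, with OFBI replicate 2 highest of all and the other OFBI libraries lowest. The log2 fold change of -0.45 (SE 0.53, 95% interval -1.70 to 0.80) was not called (edgeR adjusted p = 0.605). Without OFBI replicate 2 it was -1.33 (edgeR adjusted p = 0.0501), and DESeq2 then called it lower at -1.28 (DESeq2 adjusted p = 0.00534).

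Krt18, its type I partner, had 36, 21 and 8 counts in the OFBI libraries, or 11.1, 6.72 and 7.48 CPM, and 494, 513 and 572 counts in the Naive libraries, or 9.76, 11.1 and 12.6 CPM. The groups overlapped here too. The log2 fold change was -0.39 (SE 0.41, 95% interval -1.35 to 0.58) and was not called (edgeR adjusted p = 0.561). A floor of 12 counts, which may stand for about 3 fragments, is 3.52, 3.58 and 10.2 CPM in OFBI replicates 1, 2 and 3. In the Naive libraries it is 0.251 to 0.286 CPM. Both simple keratins were thus under the floor in OFBI replicate 3.

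Hepatocytes also make Krt8 and Krt18. The summed level of 10 hepatocyte markers was 145, 175 and 925 CPM in the OFBI libraries, against 30.8 to 41.8 CPM in the Naive libraries. Of the 4 markers tested, 3 were called higher, beside 8.41% of all genes. The summed level was highest in OFBI replicate 3, where both keratins were under the floor. The part of such transcripts in the Krt8 and Krt18 values was not tested.

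Krt6a, the keratin of stressed epithelium, measured 4594, 6976 and 8719.6 CPM in the OFBI libraries, against 2773, 2536 and 2372 CPM in the Naive libraries. Every OFBI library lay above every Naive one, with OFBI replicate 3 highest. Means were 6763 ± 2071 CPM in OFBI and 2560.2 ± 202 CPM in Naive corneas (SD, n = 3 each), and the log2 fold change was 1.40 (SE 0.23, 95% interval 0.85 to 1.95), or 2.64-fold (edgeR adjusted p = 0.0148). Without OFBI replicate 3 it was 1.17 (edgeR adjusted p = 0.00898), and without Naive replicate 1, 2 and 3 in turn the edgeR adjusted p was 0.0658, 0.0757 and 0.0766.

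Counts of Krt6a cannot be fully told apart from those of its neighbour Krt6b, a near-identical type II keratin. Both genes lie on chromosome 15 (GRCm38, GENCODE release M21), Krt6a at chr15:101689910-101694307 and Krt6b at chr15:101676023-101680287, both on the minus strand. Their coding sequences, of 1659 and 1662 bases, were 97.6% identical over the alignment, with 37 mismatches and 3 gap columns. The stretch from coding base 727 to 876 of each holds 19 of the differences, in capitals.
Krt6a: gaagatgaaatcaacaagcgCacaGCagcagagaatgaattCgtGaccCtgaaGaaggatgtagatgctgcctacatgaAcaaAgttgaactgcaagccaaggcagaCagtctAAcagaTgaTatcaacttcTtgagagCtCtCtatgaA
Krt6b: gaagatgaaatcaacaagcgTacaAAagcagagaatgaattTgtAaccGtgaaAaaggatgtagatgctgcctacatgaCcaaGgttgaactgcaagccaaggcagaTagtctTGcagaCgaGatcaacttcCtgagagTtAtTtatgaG
Elsewhere the pair has long shared runs: 36.2% of the 75-base windows of the Krt6a transcript also occur in that of Krt6b. Krt6b measured 4552, 6371 and 6943 CPM in the OFBI libraries, against 2876, 2643 and 2486 CPM in the Naive libraries, with a log2 fold change of 1.16 (edgeR adjusted p = 0.0126, SE 0.18), a call lost without Naive replicate 1, 2 or 3 (edgeR adjusted p = 0.056, 0.0711 and 0.0679). With the pair summed, the log2 fold change was 1.28 (edgeR adjusted p = 0.0139, SE 0.21), and this sum does not depend on how reads were split between the pair.

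The other members shared fewer 75-base windows with any gene. Krt8 shared 22.0%, all with its pseudogene Krt8-ps. Krt14 shared 5.91%, with Krt16, and Krt5 shared 5.18%, most of it with Krt6a, while Krt12, Krt15, Krt4, Krt13, Krt19 and Krt18 shared none.

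Levels of different genes were compared as CPM per kb of the longest protein-coding transcript. In OFBI corneas Krt12 led with 13807 ± 1612 CPM per kb, followed by Krt5 with 11954 ± 3433 (SD, n = 3 each), and their libraries overlapped. Krt6a, Krt13 and Krt15 came next with 2969 ± 909, 2468 ± 459.9 and 2022 ± 280.1 CPM per kb, again without clear gaps between neighbours, and then Krt14 with 1124 ± 108 (SD, n = 3 each). Krt4 and Krt19 followed at 187 ± 7.06 and 136 ± 9.42 CPM per kb, and Krt18 and Krt8, which overlapped, at 5.88 ± 1.64 and 5.76 ± 4.37 (SD, n = 3 each).

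In Naive corneas the order was nearly the same. Krt12 had 5399 ± 603 CPM per kb, Krt5 3520.1 ± 480.3 and Krt6a 1124 ± 88.5 (SD, n = 3 each). Krt15 with 917 ± 70.2 CPM per kb then stood above Krt13 with 839 ± 9.30 and was apart from it by a slim gap. The lowest Naive library of Krt15 had 853 and the highest of Krt13 had 849 CPM per kb. In OFBI corneas Krt13 stood above Krt15 and their libraries overlapped. Krt14 had 321 ± 4.61, Krt4 124 ± 5.00, Krt19 95.9 ± 13.6, Krt8 8.16 ± 1.32 and Krt18 7.75 ± 0.99 CPM per kb (SD, n = 3 each). In this group every keratin was apart from the next in the order but Krt8 and Krt18.

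Ratios of counts within a library need no scaling between libraries, and 8 ratios were compared. Krt13 to Krt4 was 8.93, 9.76 and 11.8 in the OFBI libraries, against 5.46, 5.19 and 5.14 in the Naive libraries, a log2 difference of 0.94. The groups were apart, so this mucosal pair was higher by unequal amounts in its members. The exact permutation test gave p = 0.1, two-sided, the smallest possible, and 0.2 when adjusted over the 8 ratios.

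Krt15 to Krt5 was 0.158, 0.153 and 0.099 in the OFBI libraries, against 0.190, 0.205 and 0.213 in the Naive libraries, a log2 difference of -0.60. Krt6a to Krt5 was 0.242, 0.271 and 0.256 in OFBI and 0.312, 0.338 and 0.348 in Naive libraries, a log2 difference of -0.38. The ratio of Krt12 to Krt14 was 12.4, 11.8 and 16.3 in OFBI and 16.5, 18.2 and 20.2 in Naive libraries, a log2 difference of -0.45. In each of these ratios the groups did not overlap and OFBI was lower, by a slim gap for Krt12 to Krt14, and each had the same exact permutation p of 0.1, or 0.2 when adjusted. No ratio could pass the threshold of 0.05 in a design of this size. With a trend with GC content and length removed, log2 fold changes were 1.26 for Krt12 and 1.39 for Krt14. Those of Krt6a, Krt15 and Krt5 were 1.27, 0.90 and 1.38, and those of Krt13 and Krt4 were 1.34 and 0.39. Krt12 and Krt14, and likewise Krt6a and Krt5 and also Krt15 and Krt5, were thus nearer each other than in the main fit. Krt13 and Krt4 were about as far apart as in the main fit. The ratios themselves were not tested with this trend removed.

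The remaining ratios overlapped between groups. Krt12 to Krt5, the corneal pair, was 1.2, 0.974 and 0.845 in OFBI and 0.998, 1.34 and 1.63 in Naive libraries, a log2 difference of -0.38 (exact permutation p = 0.2, adjusted 0.32). Krt14 to Krt5, the basal pair, differed by 0.07 (exact permutation p = 0.8), and this sign turned without OFBI replicate 1, OFBI replicate 2 or Naive replicate 1. Krt18 to Krt8 differed by 0.32 and Krt19 to Krt8 by 1.26 on the log2 scale (exact permutation p = 0.7 and 0.3).

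**Figure D3:**
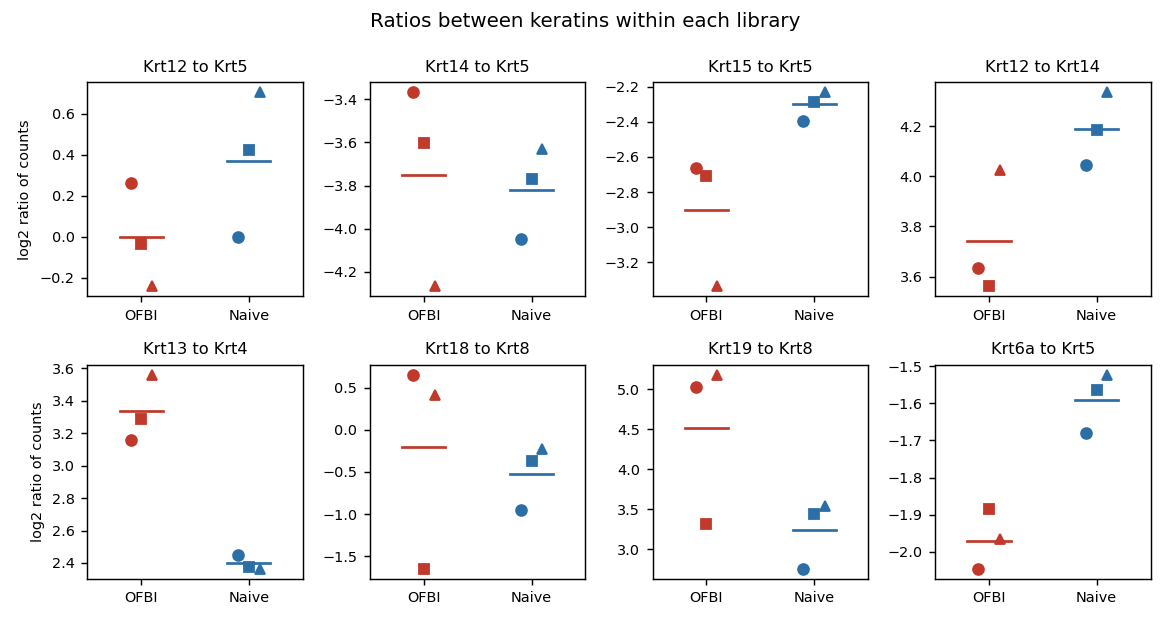
Log2 ratio of counts between keratins within each library (vertical axis, its own range in each panel), for OFBI (red) and Naive (blue). Symbols mark the replicates and bars the group means. Krt13 to Krt4 is higher in all OFBI libraries, while Krt15 to Krt5, Krt12 to Krt14 and Krt6a to Krt5 are lower in all of them.

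Within the 10 keratins, the shares of the most abundant pair overlapped between groups. Krt12 took 41.3%, 36.7% and 35.0% of their counts in OFBI and 36.2%, 41.7% and 46.0% in Naive libraries, and Krt5 took 37.8% ± 3.56 in OFBI and 31.9% ± 4.04 in Naive corneas (SD, n = 3 each). The highest share of Krt12 was in a Naive library and that of Krt5 in an OFBI library. Krt4 took 0.595% ± 0.0971 in OFBI and 1.09% ± 0.0557 in Naive corneas, and Krt19 took 0.324% ± 0.0869 in OFBI and 0.625% ± 0.0938 in Naive corneas (SD, n = 3 each). Both of these conjunctival keratins thus made up less of the keratin counts in every OFBI library, although neither was lower by CPM, while Krt13 held 5.96% ± 0.293 in OFBI and 5.73% ± 0.123 in Naive corneas (SD, n = 3 each). A smaller share in every OFBI library was also seen for Krt15, Krt8 and Krt18. That of Krt15 was 5.09% ± 0.878 in OFBI and 6.43% ± 0.433 in Naive corneas (SD, n = 3 each).

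Patterns over the 6 libraries were compared by the root mean square difference of log2 CPM, each gene centred on its own mean, which is a description of 6 libraries that share their depth by group. Among the members, Krt4 and Krt19 were closest, at 0.131, followed by Krt12 and Krt13 at 0.142 and Krt5 and Krt13 at 0.182. Among the 7117 genes averaging 20 CPM or more, the nearest to Krt12 were Selenow, Esrra and Stk11 (0.0597, 0.068 and 0.0714). Nearest to Krt14 were Stx16, Tle3 and the keratin Krt16 (0.115, 0.127 and 0.139), of which Krt16 shares 75-base windows with Krt14. Nearest to Krt4 were Uck2, Hsp90ab1 and Gtf3c1 (0.0411, 0.0474 and 0.0567), and nearest to Krt18 were Slc12a4, Rb1cc1 and Slc11a2 (0.0602, 0.067 and 0.0791).

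Other epithelial keratins were read from a list of 17, of which 9 were tested and 8 were at 0 in all OFBI libraries. Krt6b, Krt16 and Krt17 were called higher and none lower, beside 8.41% and 10.4% of all genes tested. The median log2 fold change of the 9 was 0.28. Krt23 had 11.1, 8.96 and 0 CPM in the OFBI libraries, against 24.5, 17.8 and 16.5 CPM in the Naive libraries. It was lower in every OFBI library but was not called, at a log2 fold change of -1.41 (edgeR adjusted p = 0.243). No gene of the list was lower with an unadjusted p below 0.05 in edgeR or was called lower by DESeq2. Krt16, a partner of Krt6a, measured 51.3, 74.0 and 62.7 CPM in the OFBI libraries, against 19.4, 18.9 and 19.5 CPM in the Naive libraries, with a log2 fold change of 1.70 (edgeR adjusted p = 0.00893, SE 0.21). Krt17, another partner, measured 75.7, 71.4 and 48.6 CPM in OFBI and 18.1, 22.0 and 20.2 CPM in Naive libraries, with a log2 fold change of 1.71 (edgeR adjusted p = 0.00993, SE 0.24). The groups were apart for both. Krt14, at 1909 CPM in OFBI and 546 CPM in Naive corneas, shares 5.91% of its 75-base windows with Krt16. The part of Krt14 reads in the Krt16 counts was not tested. Without Naive replicate 1, 2 and 3 in turn, the edgeR adjusted p was 0.0527, 0.0634 and 0.0531 for Krt16 and 0.0561, 0.0634 and 0.0605 for Krt17. The other abundant genes of the list, Krt80 and Krt78, were not called, at 0.05 and 0.53 (edgeR adjusted p = 0.841 and 0.101).

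**Figure D4:**
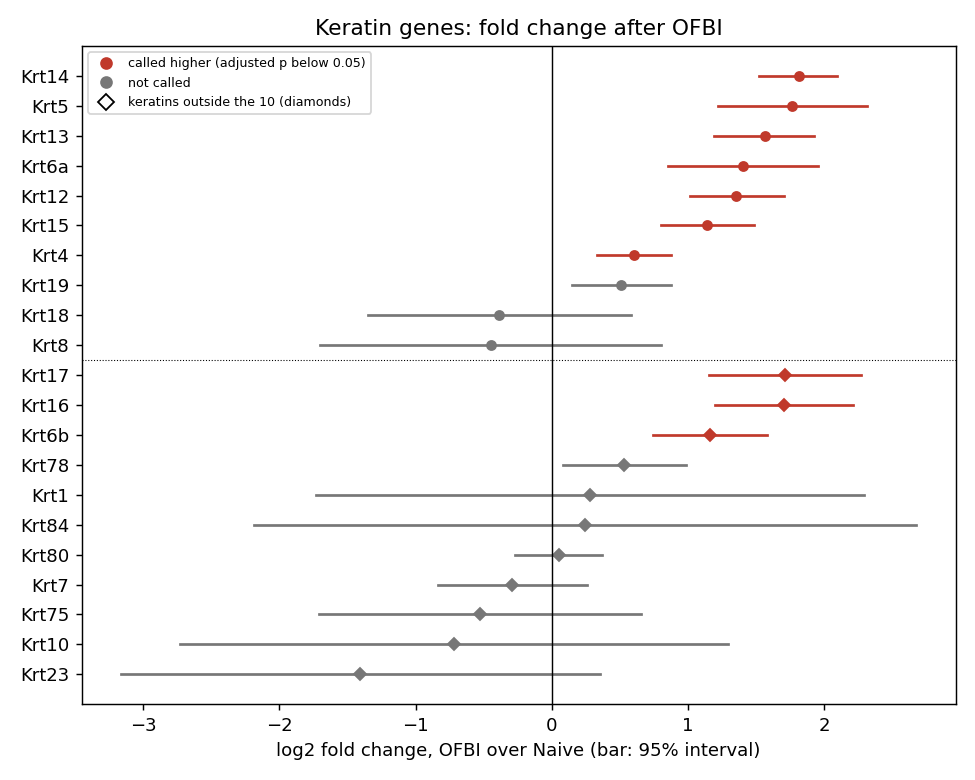
Log2 fold change, OFBI over Naive, with its 95% interval (horizontal axis), for the 10 keratins (circles, above the dotted line) and the other tested keratins (diamonds, below it), without Krt32, which was at 0 in all OFBI libraries. Red marks those called higher. Intervals of Krt8, Krt18 and the low keratins such as Krt84 and Krt10 span 0 widely, while those of the called genes lie above it.

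Keratins of skin and hair were scarce. Of 24 hair keratins, 23 had a row, 20 were at 0 in all OFBI libraries, and 3 were tested. None of the 3 was called by edgeR or DESeq2, and 1, Krt32 at 0 in all OFBI libraries, had an unadjusted p below 0.05. The whole list summed to 5.76 to 7.48 CPM in OFBI and 10.3 to 11.3 CPM in Naive libraries. Markers of the cornified epidermis, Krt1 and Krt10 among them, summed to 0 to 16.1 CPM in OFBI and 19.5 to 25.7 CPM in Naive libraries, and those of the meibomian gland, the oil gland of the lid, to 0 to 2.47 CPM in OFBI and 6.87 to 8.13 CPM in Naive libraries. None of the 3 epidermal markers and the 1 meibomian marker tested was called by edgeR, while 1 of each list was lower with an unadjusted p below 0.05 and was called lower by DESeq2. The summed lid skin markers were below every Naive value in every OFBI library, but a floor of 12 counts is 3.52 to 10.2 CPM for a single gene in these libraries, so a difference in most of these markers was not detectable at this depth.

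Markers of other layers of the eye differed between groups in both directions. Among all genes tested, 8.41% were called higher and 10.4% lower. The stromal list summed to 4652 to 6583 CPM in OFBI and 1369.8 to 1904 CPM in Naive libraries, with Col1a1, Col1a2 and Col5a1 called higher and Dcn and Ptgds lower. The median log2 fold change of this list was -0.78, opposite in sign to the difference of the sums, and the calls of Dcn and Ptgds were lost with any of the Naive replicates left out. Corneal endothelium markers summed to 1349 to 1483 CPM in OFBI and 1668 to 1781 CPM in Naive libraries, with 3 of 7 called lower and a median log2 fold change of -0.76. Lens markers summed to 588 to 816 CPM in OFBI and 243 to 269.7 CPM in Naive libraries, and retina markers to 109.7 to 157 CPM in OFBI and 256 to 285 CPM in Naive libraries, with median log2 fold changes of 0.33 for lens and -0.58 for retina. Their part in the keratin differences was not tested.

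Of 14 genes for proteins that tie keratins to cell junctions, 13 were tested. By edgeR 1 was called higher and none lower, where 8.41% and 10.4% of all genes were, so the share called higher was near that over all genes. The median log2 fold change was -0.11. At an unadjusted p below 0.05, 2 were higher and 1 was lower, and DESeq2 called 2 higher and none lower. The gene called was Evpl, which encodes envoplakin, at 7829.7, 7548 and 10337 CPM in the OFBI libraries, against 4087, 4151 and 4047 CPM in the Naive libraries (log2 fold change 1.07, SE 0.15, edgeR adjusted p = 0.0103). The groups were apart, but removal of a trend with GC content and length left a log2 fold change of 0.09 (edgeR adjusted p = 0.724), and without Naive replicate 1, 2 and 3 in turn its edgeR adjusted p was 0.0545, 0.0634 and 0.0599. Dsp, which encodes desmoplakin, and Plec, which encodes plectin, were not called, at -0.24 and 0.52 (edgeR adjusted p = 0.251 and 0.105).

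Of 18 transcription factors of surface epithelia, 3 were called higher and 2 lower, beside 8.41% and 10.4% of all genes, with a median log2 fold change of -0.13. Klf5, a zinc finger factor of proliferating epithelium, measured 1935, 2027 and 2829 CPM in the OFBI libraries, against 883, 742 and 718 CPM in the Naive libraries (log2 fold change 1.53, SE 0.18, edgeR adjusted p = 0.00827). It was the clearest of the list, with groups apart, and its call was lost without Naive replicate 2 or 3 (edgeR adjusted p = 0.0579 and 0.0513). Foxc1 and Tfap2a were also called higher, at 0.87 and 0.57, and Grhl1 was called lower beside Trp63, at -0.67 (edgeR adjusted p = 0.016, 0.0481 and 0.0295). These 3 calls were lost in edgeR with any of the Naive replicates left out. Klf4 and Elf3 were not called, at -0.01 and -0.14, nor was Pax6, the master regulator of eye development, at 0.59 (edgeR adjusted p = 0.977, 0.567 and 0.0551).

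Over the alternative settings, each keratin kept its direction in the 24 to 26 alternatives in which it was fitted. Krt14 ranged from 1.39 to 1.89 on the log2 scale over 26 alternatives, Krt13 from 1.34 to 1.67 and Krt12, over 25, from 1.15 to 1.47. Krt19 ranged from 0.05 to 0.69 and Krt8 from -1.33 to -0.15.

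**Figure D5:**
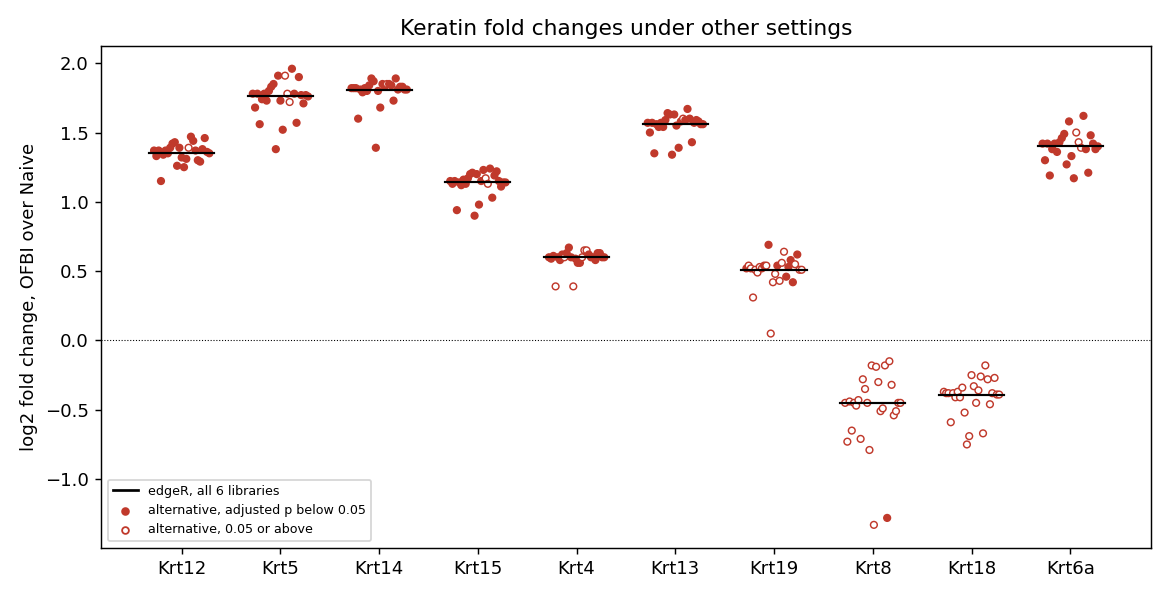
Log2 fold change, OFBI over Naive (vertical axis), of each keratin under each alternative setting. Filled circles have an adjusted p below 0.05, open ones do not, and black bars are the values from edgeR with all 6 libraries. The 8 keratins from Krt12 to Krt19 and Krt6a stay above 0 in the settings in which they were fitted, with Krt19 down to 0.05, and Krt8 and Krt18 stay below 0.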

How the data were processed

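Estimated counts per gene were deposited by the authors, 1 table per library, as whole numbers with no scaling for depth. Per the submitters' processing notes, the build was GRCm38 and the tools included HISAT2, StringTie, FastQC and DESeq2, without versions. Per the labels' protocols, stranded libraries were made from 2 µg of column-purified RNA. How multi-mapping reads were handled, and with which annotation and strand setting, is not given in the sources used here, so near-identical genes may share reads. Of the values from 1 to 40, 39.4% to 50.5% were multiples of 4 in a library, so about 4 counts may stand for 1 fragment. That is an inference from the values.

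Summing 64 rows that fell on 31 shared symbols left 22007 symbols, and 26 rows with date-like names, at most 0.148% of a library's counts, were kept under neutral names. The main test was edgeR 4.0.16 (R 4.3.3): filterByExpr, TMM scaling (factors 0.916 to 1.08), a quasi-likelihood fit with group only, two-sided, Benjamini-Hochberg over 13941 genes, threshold 0.05. The SE is the log2 fold change divided by the square root of F. Ratios between keratins used deposited counts and exact permutation tests. A floor of 12 counts, which may be about 3 fragments, stands for a count of 0, and floors cover counting error only. Lengths and coordinates are those of GENCODE release M21 on GRCm38, 1-based, matched by name for 21710 symbols, and promoter windows are from RefSeq (GRCm38.p6). That table gave windows for Krt12, Krt5, Krt14, Krt13, Krt8 and Krt18. Libraries of a group differed by more than sampling noise (chi-square per gene, 16.7 to 58.8 on average).

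The procedure was first tested on simulated data of 13941 genes. It recovered 9% of the 200 genes set to differ 2-fold, and 71% of the 200 set to differ 4-fold. The rate of false calls was 3.61%. Most differences of 2-fold were thus missed, so a gene that was not called cannot be taken as unchanged. The keratins and the gene lists were chosen with earlier results of these data known. Named genes were all 10 keratins, the 3 most abundant tested genes and the 2 with the smallest p of each list of other keratins, linkers, transcription factors and other filaments, and the 3 genes nearest in pattern to Krt12, Krt14, Krt4 and Krt18 among those of at least 20 CPM (log2 of CPM plus 1). Foxc1, Tfap2a, Grhl1, Pax6, Krt23 and the marker genes were named outside this rule, after their values were seen. Alternatives were DESeq2 1.42.0, limma-voom (limma 3.58.1), other scalings and filters, counts divided by 4, thinned libraries, a GC and length trend, a replicate block and leaving out each library. Scaling without keratins, summing Krt6a with Krt6b and leave-outs in DESeq2 were added after seeing the data.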

Additional observations from a re-analysis of the deposited data

How the results depend on the processing

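Each keratin of the 10 kept its direction in the alternatives in which it was fitted, 24 to 26 of them; the exceptions in which one was not fitted are Krt12, Krt5 and Krt6a with the 10 most abundant genes removed, Krt18 with all libraries thinned, and Krt6a when summed with Krt6b. The number called higher, 7, was 6 to 8 under most, 4 with the 10 most abundant genes removed, since Krt12, Krt5 and Krt6a are among those, and 0 to 8 when single libraries were left out (4, 0 and 3 without Naive replicates 1, 2 and 3 in edgeR, at least 7 in DESeq2). Leave-outs in edgeR gave 0 to 1611 genes higher and 0 to 2065 lower, and 0 to 11 list genes higher and 0 to 5 lower, against 11 and 4 with all libraries. The cause of the low counts without a Naive library was not tested. DESeq2 called 1854 genes higher. In DESeq2, leaving out OFBI replicates 1, 2 and 3 in turn gave 2020, 2258 and 2438 genes higher and 2492, 2891 and 2772 lower, and 18 list genes higher (replicate 3) and 7 lower (replicate 1). Leaving out Naive replicates 1, 2 and 3 gave 604, 479 and 539 genes lower, and 2 list genes lower for replicates 2 and 3. Genes called lower numbered 910 without a filter, 580 after thinning the Naive libraries to OFBI replicate 1, and 457 after thinning all to the shallowest one, with 2 list genes lower; thinning also left fewer genes to test. Libraries of the same number did not deviate together (correlations of -0.0134, -0.0241 and 0.00795), so the numbers do not pair them. With a replicate block, 540 genes were called higher and 253 lower, with 6 keratins higher and 1 list gene lower, and Krt4 had an edgeR adjusted p of 0.0873. Without single libraries, the log2 difference in Krt14 to Krt5 ranged from -0.12 to 0.33, turning to -0.12, -0.05 and -0.0 without OFBI replicate 1, Naive replicate 1 and OFBI replicate 2. That in Krt18 to Krt8 ranged from -0.1, without OFBI replicate 1, to 1.05. Depth limits Krt8, Krt18 and the genes at 0 in OFBI libraries.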

Other observations

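Intermediate filament genes other than keratins were read from a list of 16, of which 15 were tested. Of these, 4 were called higher (Vim, Des, Lmnb2 and Synm) and 2 lower (Gfap and Ina), beside 8.41% and 10.4% of all genes. The share called lower was near that over all genes. The median log2 fold change was 0.28, OFBI over Naive. Vim, which encodes the vimentin of mesenchymal cells, measured 117, 94.4 and 261 CPM in the OFBI libraries, against 49.7, 48.0 and 48.2 CPM in the Naive libraries, with a log2 fold change of 1.67 (edgeR adjusted p = 0.0273, SE 0.37). It was highest in OFBI replicate 3, which also held the most hepatocyte and leukocyte transcripts of the OFBI libraries. Synm, which encodes synemin, a filament protein of muscle, measured 35.2, 54.1 and 45.8 CPM in OFBI and 12.0, 17.5 and 15.5 CPM in Naive libraries, with a log2 fold change of 1.59 (edgeR adjusted p = 0.0164, SE 0.28). Striated muscle markers summed to 198 to 351 CPM in OFBI and 214 to 225 CPM in Naive libraries, with a median log2 fold change of 0.87. Of the 10 tested, 4 were called higher (Myh6, Tnni3, Tnnt2 and Mb) and 1 lower (Myh4), beside 8.41% and 10.4% of all genes. The part of muscle transcripts in the Synm difference was not tested. Gfap, the filament of astrocytes and other glia, was at 0 in all OFBI libraries and measured 5.16, 5.39 and 5.22 CPM in the Naive libraries, at least 3.25-fold lower in OFBI against a group floor of 1.62 CPM. Ina was also at 0 in all OFBI libraries, but its Naive mean of 1.03 CPM was under that floor, so a difference was not detectable. The calls of Vim, Des, Lmnb2, Synm and Gfap were lost in edgeR with any of the Naive replicates left out, and Ina was then not tested. The lamin genes Lmnb1 and Lmna were not called, at 0.28 and 0.26 (edgeR adjusted p = 0.162 and 0.281).

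Leukocyte markers summed to 119, 125 and 306 CPM in the OFBI libraries, against 195, 179 and 163 CPM in the Naive libraries. The groups overlapped, and only OFBI replicate 3 stood above the Naive libraries. Of 8 markers tested, edgeR called 3 higher (Cd3e, Cd3g and Cd2) and none lower, beside 8.41% and 10.4% of all genes. DESeq2 called 4 higher, beside 13.3% of all genes, and 1 lower. Albumin transcripts (Alb) measured 60.9, 102 and 644 CPM in OFBI and 1.03, 0.604 and 4.14 CPM in Naive libraries, again with OFBI replicate 3 highest.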
